A study of Mus musculus with 12 samples.

Results

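PreLPLCs are the hepatocytes that the study's cell table names as the stage before liver progenitor-like cells (LPLCs). They were taken by that name alone and numbered 191 of 6573 annotated hepatocytes (2.91%), 135 in a 10X pool without CLO, 47 in a 10X pool with CLO and 9 in Smart-seq2 libraries. All 191 belonged to cluster 13 of the authors' 25 clusters, and cluster 13 held no other cell. The values analysed here are labels and map positions of cells. No value per gene was used, so the name was not checked against Sox9, Spp1 or Alb, and no gene level of a PreLPLC is given.

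When hepatocytes are injured for long and bile ducts react, some of them take on traits of bile duct cells while keeping traits of hepatocytes. Sox9, which encodes a bile duct transcription factor, and Spp1, which encodes the secreted protein osteopontin, are known to be switched on in such cells, and Alb, which encodes albumin, marks the hepatocyte. Cells in this state are regarded as progenitor-like because they can divide and return to the hepatocyte state. In the authors' naming PreLPLCs precede LPLCs, while PostLPLCs1 and PostLPLCs2 follow them. InjuredHeps1 and InjuredHeps2 are injured hepatocytes, NormalHeps normal ones and ProliHeps proliferating ones.

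The hepatocytes came from livers injured by a DDC diet, which damages hepatocytes and bile ducts, and from livers of mice on normal diet, which the labels call day 0. Each 10X pool joined hepatocytes of Rosa26-mTmG mice on normal diet and of WT mice given DDC for 7 days, with 2 mice of each kind and the strain C57BL/6J;129S6/SvEvTac. The CLO pool had the same makeup with CLO treatment, a name that the labels do not expand. Smart-seq2 libraries came from Sox9-EGFP mice, in which GFP reports use of the Sox9 gene, of strain FVB/N;129S6/SvEvTac, except that replicate 3 of day 7 is labelled FVB/N;129S7/SvEvTac. They comprised 1 library of day 0, 1 of day 0 and day 7 together, 2 of day 3 and day 7 together, and 3 of day 7. For Smart-seq2, hepatocytes of DDC-fed mice were sorted on granularity, size and GFP, so the sort can set the shares in those libraries. The sources used here do not give the day or mouse of a single cell in a pooled or mixed library. At most 2 mice on DDC stand behind a pool, and the titles give 2 for the DDC Smart-seq2 libraries as a whole. The title of the day 0 library gives 1 mouse on normal diet, while the protocol gives 2 mice per Smart-seq2 group. Of the 9 Smart-seq2 libraries, 2 of day 3 had no annotated cell and were not analysed here.

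Depth is stated in cells, since the sources used here give no UMI totals. The libraries held 4800 cells without CLO, 1446 with CLO and 26 to 82 in each Smart-seq2 library. The 10X pools shared 1 cell barcode with each other, and shared 6 (without CLO) and 2 (with CLO) with the 10X pool of myeloid cells. None of these barcodes belonged to a PreLPLC.

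PreLPLCs were a small type of similar share in both 10X pools. They made up 2.81% of the pool without CLO (135 of 4800 cells, exact Clopper-Pearson 95% interval 2.36 to 3.32) and 3.25% of the CLO pool (47 of 1446, 2.40 to 4.30). The CLO share was 1.16 times that without CLO, with a Katz log interval of 0.834 to 1.60. Intervals cover counting error of cells only. Each arm was 1 pool and 1 batch, so no test between pools was possible, and batch and CLO cannot be told apart.

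In the Smart-seq2 libraries, PreLPLCs were found almost entirely in 1 library. Replicate 1 of day 7 held 8 among 82 cells (9.76%, 4.31 to 18.3). Replicate 3 of day 7 held 1 among 45 (2.22%, 0.0562 to 11.8). Replicate 2 held 0 of 47, which allows a share of up to 6.38% with a limit of 3 cells. The limits that follow are of this kind and lie below the exact upper bounds, which run from 7.55% to 13.2%. The day 0 library held 0 of 43, which allows up to 6.98%. The library of day 0 and day 7 held 0 of 45 (up to 6.67%), and those of day 3 and day 7 held 0 of 39 (up to 7.69%) and 0 of 26 (up to 11.5%).

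Replicate 1 of day 7 thus stood above every other Smart-seq2 library, but its interval overlapped the limits of all of them. The other 6 libraries, of several days, together held 1 PreLPLC in 245 cells (0.408%, 0.0103 to 2.25). This interval lay below that of replicate 1, which was singled out here as the highest library. Over all 7 libraries the Smart-seq2 share was 2.75% (9 of 327, 1.27 to 5.16), close to the 2.91% (182 of 6246, 2.51 to 3.36) of the 10X pools together. This near-equal platform share rests on that 1 library.

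Day 7 gave a mean of 3.99% ± 5.11 (SD, n = 3 libraries) against 0 of 43 cells at day 0, and the SD exceeded the difference. Without replicate 1 the difference was 1.11 percentage points. That replicate was also the only day 7 library of batch 2, so within batch 1, which held the day 0 library, the difference was the same 1.11 points. No test was run on 3 libraries from at most 2 mice against 1 library, and day and sort cannot be told apart.

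**Figure D1:**
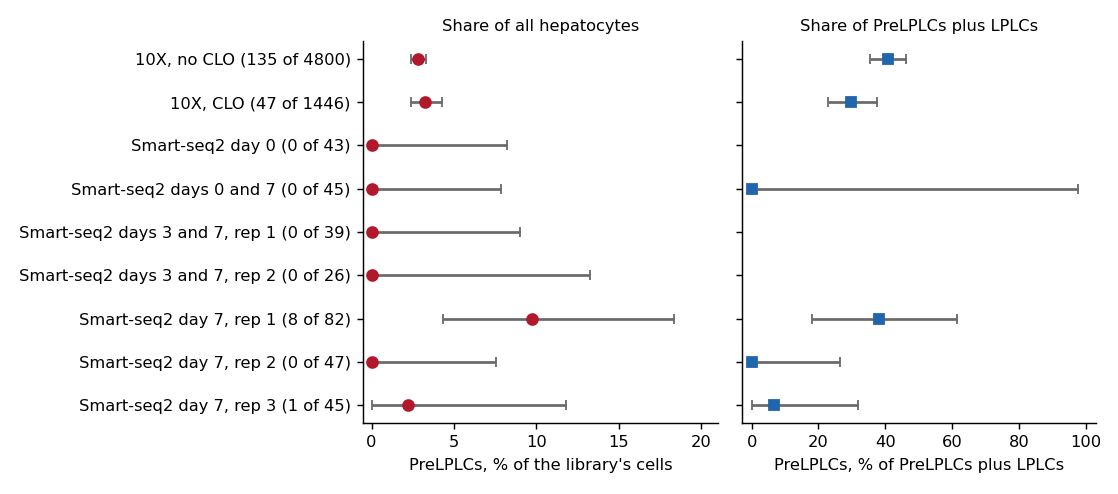
PreLPLCs in each of 9 hepatocyte libraries, as a percent of all cells (left) and as a percent of PreLPLCs plus LPLCs (right, where a library held either). Points are the measured shares and bars are exact 95% intervals for counting error. For libraries at 0 in the left panel the bars reach 7.55% to 13.2%, above the limits of 3 cells given in the text. The 2 10X pools sit at 2.81% and 3.25% with narrow bars, replicate 1 of day 7 sits at 9.76%, and 5 libraries are at 0.

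The batch that gave most Smart-seq2 PreLPLCs also held the libraries of day 3 and day 7, which gave none in 65 cells (exact upper bound 5.52%). The cells of those libraries carried barcode numbers 49 to 96 and 57 to 95, while replicate 1 of day 7 ran from 1 to 96. Its PreLPLCs had numbers 13, 28, 45, 56, 60, 74, 87 and 88, spread over the range. Among its 42 cells with numbers of 49 or more, 5 were PreLPLCs (11.9%, 3.98 to 25.6), and among its 40 lower-numbered cells 3 were (7.5%, 1.57 to 20.4). The single PreLPLC of replicate 3 had number 24.

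The other types of these libraries help to place the PreLPLCs. Replicate 1 of day 7 held 18 of the 34 InjuredHeps2 cells of all Smart-seq2 libraries, and 82 of their 327 cells. InjuredHeps2 were 22.0% of its cells. The day 0 library held 9 InjuredHeps2 cells among 43, a share close to that of replicate 1, with no PreLPLC and no LPLC. Replicates 2 and 3 of day 7, with 92 cells together, held 1 InjuredHeps2 cell, 26 LPLCs and 1 PreLPLC. A part of the GFP and size sort in these differences was not tested.

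PreLPLCs and LPLCs are adjacent stages in the authors' naming, and their balance in the 2 pools was compared by cell counts. Without CLO there were 135 PreLPLCs and 197 LPLCs, or 0.685 PreLPLCs per LPLC. With CLO there were 47 and 111, or 0.423 per LPLC. The CLO ratio was 0.618 times that without CLO (log interval 0.412 to 0.927). PreLPLCs were 40.7% (35.3 to 46.2) of both types together without CLO and 29.7% (22.7 to 37.5) with CLO. These intervals overlapped, and that of the ratio lay below 1, which compares 2 libraries by counting error and is no test of CLO.

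Replicate 1 of day 7, with 8 PreLPLCs and 13 LPLCs, had 0.615 PreLPLCs per LPLC. They were 38.1% of both types there (18.1 to 61.6), an interval that covers both pools. In the other day 7 libraries LPLCs stood almost without PreLPLCs. Replicate 2 had 12 LPLCs and no PreLPLC (exact upper bound 26.5% of both types), and replicate 3 had 14 LPLCs and 1 PreLPLC (6.67%, 0.169 to 31.9). Replicates 1, 2 and 3 thus held 13, 12 and 14 LPLCs beside 8, 0 and 1 PreLPLCs. Their libraries had 82, 47 and 45 cells, so LPLCs were a smaller share of replicate 1 than of replicates 2 and 3.

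PreLPLCs were also counted per cell of each of the other 7 types in the 2 pools. The intervals of these ratios again cover counting error of cells in single pools, not the difference between treatments. InjuredHeps1 numbered 965 cells without CLO and only 18 with CLO. Per InjuredHeps1 cell there were 0.140 PreLPLCs without CLO and 2.61 with CLO, a ratio of 18.7 (10.5 to 33.1). Per PostLPLCs2 cell, of which there were 778 and 56, there were 0.174 and 0.839 PreLPLCs, a ratio of 4.84 (3.15 to 7.43). Per InjuredHeps2 cell there were 0.176 and 0.303 PreLPLCs, a ratio of 1.72 (1.19 to 2.504). PreLPLCs were thus more numerous relative to both injured types in this CLO pool than in this pool without CLO.

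Relative to PostLPLCs1 and ProliHeps the order was the opposite. Per PostLPLCs1 cell, PreLPLCs went from 0.245 without CLO to 0.0979 with CLO, a ratio of 0.4004 (0.281 to 0.570). Per ProliHeps cell they went from 0.637 to 0.222, a ratio of 0.348 (0.237 to 0.510). Per NormalHeps cell they were 0.113 and 0.128, a ratio of 1.13 (0.797 to 1.61). These ratios share the same 182 PreLPLCs and mostly follow the number of cells of the other type. With InjuredHeps1 left out of the denominator, the PreLPLC share was 0.935 times as high with CLO as without.

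**Figure D2:**
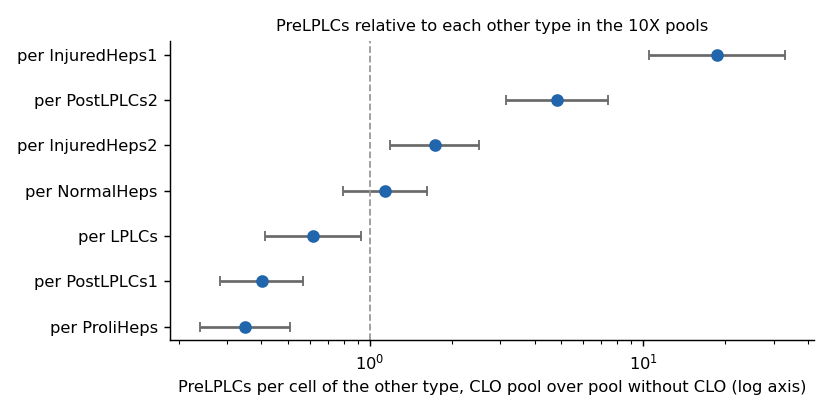
PreLPLCs per cell of each other hepatocyte type, CLO pool divided by pool without CLO, on a log axis with 95% log intervals for counting error. The dashed line marks equality. PreLPLCs per InjuredHeps1 (18.7), PostLPLCs2 (4.84) and InjuredHeps2 (1.72) cell were higher in the CLO pool than in the pool without CLO. Those per LPLC (0.618), PostLPLCs1 (0.4004) and ProliHeps (0.348) cell were lower.

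The authors' UMAP map places cells with similar expression near each other. It was made from the same cells as the clusters, so the positions below describe the cluster and test nothing, and no interval is given for overlapping sets of neighbours. PreLPLCs lay in a region between InjuredHeps2, PostLPLCs1 and LPLCs. Among the 15 nearest cells of each PreLPLC, 64.1% were PreLPLCs, 12.9% were PostLPLCs1 and 12.9% InjuredHeps2. PostLPLCs2 gave 4.96% and LPLCs 4.01%. ProliHeps (0.593%), InjuredHeps1 (0.349%) and NormalHeps (0.140%) were nearly absent from these neighbours.

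**Figure D3:**
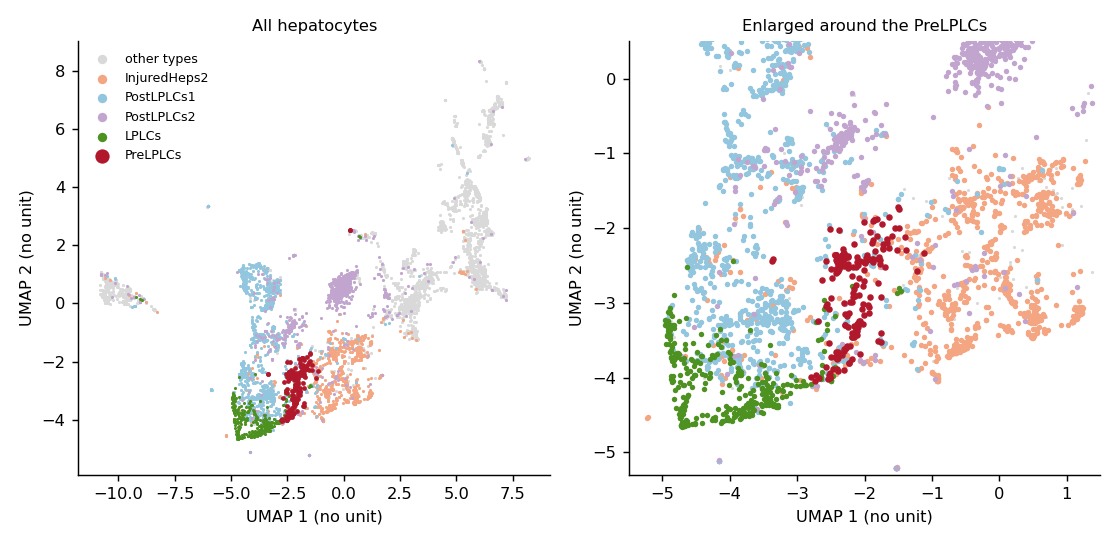
Positions of hepatocytes on the authors' UMAP map, all cells (left) and the region around the PreLPLCs (right), both axes without unit. Each point is 1 cell, PreLPLCs are in dark red, 4 other types are coloured and the remaining types are grey. PreLPLCs form a narrow vertical band between InjuredHeps2 on the right and PostLPLCs1 and LPLCs on the left, and 2 PreLPLCs lie apart from it, on almost the same spot near the upper middle of the left panel.

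The neighbours were also set against how many cells each type has. Among neighbours that were not PreLPLCs, InjuredHeps2 made up 35.9% and PostLPLCs1 36.1%, against 14.98% and 18.3% of all hepatocytes other than PreLPLCs. They were thus 2.40 and 1.97 times their share. LPLCs made up 11.2% of those neighbours and 5.45% of those cells, 2.05 times their share. PostLPLCs2 were at 1.04 times theirs, with 13.8% and 13.3%. With all libraries on the map, PreLPLCs therefore lay near InjuredHeps2, LPLCs and PostLPLCs1 more than the abundance of these types gives. Within single libraries this held for PostLPLCs1 (2.21 times its share without CLO, 1.52 with CLO and 1.48 in replicate 1 of day 7). For InjuredHeps2 it held without CLO (2.64) and with CLO (2.69). In replicate 1 of day 7, with 8 PreLPLCs, InjuredHeps2 were near their share (1.14, 27.6% against 24.3%). For LPLCs the excess held without CLO (3.26) and turned with CLO (0.259) and in replicate 1 of day 7 (0.374). For PostLPLCs2 it was 0.826 without CLO, 3.42 with CLO and 0 in replicate 1 of day 7.

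**Figure D4:**
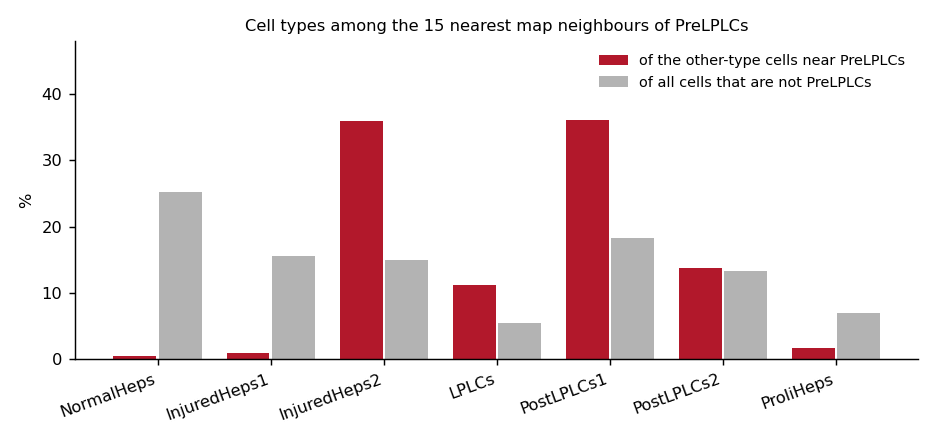
Types among the map neighbours of PreLPLCs that are not PreLPLCs (red bars, percent, 15 nearest cells, all libraries) beside the share of each type among all cells other than PreLPLCs (grey bars, percent). InjuredHeps2 (35.9% against 14.98%), LPLCs (11.2% against 5.45%) and PostLPLCs1 (36.1% against 18.3%) exceed their share, and NormalHeps (0.389% against 25.3%) and InjuredHeps1 (0.973% against 15.6%) lie far under it.

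Seen from the other types, contact with PreLPLCs was limited to few cells. At least 1 PreLPLC was among the 15 nearest cells for 88 of 956 InjuredHeps2 cells (9.21%), 30 of 348 LPLCs (8.62%) and 74 of 1169 PostLPLCs1 cells (6.33%). The same held for 24 of 850 PostLPLCs2 cells (2.82%), 6 of 448 ProliHeps (1.34%), 4 of 998 InjuredHeps1 cells (0.401%) and 2 of 1613 NormalHeps (0.124%). By cluster, PreLPLCs made up 4.13% of the neighbours of cluster 4, a PostLPLCs1 cluster, the highest value outside cluster 13. InjuredHeps2 clusters 2 and 5 followed with 2.87% and 2.76%, then PostLPLCs1 cluster 10 with 2.68% and LPLC cluster 7 with 2.64%. PreLPLCs were 2.91% of all hepatocytes, but these values cannot be read against that share. They count all 15 neighbours, of which 60.3% (cluster 4) to 74.1% (cluster 7) were cells of the same cluster.

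The nearest cell of any other type gave a similar picture with more PostLPLCs2. It was a PostLPLCs1 cell for 78 of 191 PreLPLCs (40.8%), an InjuredHeps2 cell for 49 (25.7%), a PostLPLCs2 cell for 42 (22.0%), an LPLC for 21 (11.0%) and a ProliHeps cell for 1. It was never a NormalHeps or InjuredHeps1 cell. The nearest cell was of PostLPLCs2 cluster 1 for 40 PreLPLCs, of PostLPLCs1 cluster 4 for 50 and of PostLPLCs1 cluster 10 for 24, and 1 cell can be nearest to several PreLPLCs.

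How closely PreLPLCs kept together on the map depended on how many cells each type had. Their own type made up 64.1% of their neighbours, against 74.1% for LPLCs, 74.5% for InjuredHeps2, 74.9% for PostLPLCs2, 75.7% for PostLPLCs1 and 87.9% to 92.3% for InjuredHeps1, NormalHeps and ProliHeps. PreLPLCs are also the smallest type. With every type thinned to 191 cells (mean of 20 random draws), the value was 84.8% for PreLPLCs, above LPLCs (82.2%), PostLPLCs2 (72.2%), InjuredHeps2 (71.1%) and PostLPLCs1 (65.7%), and below InjuredHeps1 (85.1%), NormalHeps (85.8%) and ProliHeps (92.5%). PreLPLCs thus went from the lowest own share to a middle one. In such equal numbers the other neighbours of PreLPLCs were InjuredHeps2 (4.81%), PostLPLCs1 (3.50%), LPLCs (3.46%) and PostLPLCs2 (2.31%). With all cells and by cluster, cluster 13 ranked 4 from the lowest of 25, after clusters 16 (50.9%), 12 (60.3%) and 4 (60.3%). Clusters of like size ranged from 60.3% in cluster 12 (198 cells) and 74.7% in cluster 11 (190 cells) to 85.8% in cluster 14 (178 cells). For 120 PreLPLCs (62.8%) more than 7 of the 15 neighbours were PreLPLCs, for 16 all were, and for 3 none was.

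The vertical map position varied more among PreLPLCs than the horizontal one. The middle 50% of cells spanned -3.37 to -2.38 vertically, around a median of -2.58, and -2.38 to -1.96 horizontally, around -2.18. The 95 cells below the vertical median had 7.93% LPLCs among their neighbours, and the 96 at or above it had 0.139%. InjuredHeps2 (14.0% and 11.7%) and PostLPLCs1 (14.6% and 11.3%) were found near both. Contact with LPLCs was therefore almost all on the lower side, while contact with InjuredHeps2 and PostLPLCs1 ran along the whole band. This division was chosen after the map was seen.

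PreLPLCs of the different libraries lay in the same band. Below the vertical median of all PreLPLCs were 62 of 135 cells without CLO (45.9%, 37.3 to 54.7), 27 of 47 with CLO (57.4%, 42.2 to 71.7) and 5 of 8 of replicate 1 of day 7 (62.5%, 24.5 to 91.5), and these intervals overlapped. A pair of cells stood far from the band, at a vertical position of 2.51, where all others were at -1.72 or lower. One came from each 10X pool, and each had 1 PreLPLC among its 15 nearest cells.

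Neighbours within a single library showed where the pools differed. In the pool without CLO alone, the 15 nearest cells of PreLPLCs were 65.2% PreLPLCs, 15.1% InjuredHeps2, 9.09% PostLPLCs1 and 4.79% LPLCs. In the CLO pool alone they were 58.6% PreLPLCs, 12.3% InjuredHeps2, 21.6% PostLPLCs1 and 0.851% LPLCs. LPLCs made up 4.10% of all cells without CLO and 7.68% with CLO. By this measure LPLCs were the scarcer neighbour of PreLPLCs in the CLO pool although they were the more frequent type there. The CLO value rests on 47 PreLPLCs. That pool held 1446 cells against 4800, so 15 nearest cells can reach farther on the map there. On the map of all libraries the order was the other way round, with LPLCs at 3.41% of the neighbours of PreLPLCs without CLO and 5.25% of those with CLO. On that map the nearest cell of another type was an LPLC for 13 of 135 PreLPLCs without CLO and 6 of 47 with CLO. This difference was not tested.

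In replicate 1 of day 7 alone, each PreLPLC has only 7 others, so at most 46.7% of its 15 neighbours can be PreLPLCs. The neighbours were 41.7% PostLPLCs1, 36.7% PreLPLCs, 17.5% InjuredHeps2 and 4.17% LPLCs, against library shares of 40.2%, 9.76%, 22.0% and 15.9%. Without PreLPLCs on either side, InjuredHeps2 were 27.6% against 24.3%, PostLPLCs1 65.8% against 44.6% and LPLCs 6.58% against 17.6%. On the map of all libraries its 8 cells had 65.8% PreLPLCs among their neighbours, like the 63.9% and 64.0% of the PreLPLCs without and with CLO. Of the 79 PreLPLC neighbours of these 8 cells, 72 (91.1%) were 10X cells, with 4 to 13 per cell. Of all 191 PreLPLCs 182 were 10X cells, so most PreLPLC neighbours would be 10X cells in any case.

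The edge of the type on the map was examined by giving each cell the commonest name among its 30 nearest cells. Of 191 PreLPLCs, 167 (87.4%) kept the name. The other 24 became InjuredHeps2 (11), PostLPLCs1 (7), LPLCs (4) or InjuredHeps1 (2). In turn 97 cells took the name PreLPLCs, of which 40 were PostLPLCs1, 32 InjuredHeps2, 13 LPLCs and 12 PostLPLCs2. With these names there were 1.02 PreLPLCs per LPLC without CLO and 0.456 with CLO, a ratio of 0.446. No interval is given, since names taken from shared neighbours are not independent counts. The new names derive from the authors' names on the same map, so a ratio in the same direction is no separate evidence.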

How the data were processed

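Values were the authors' deposited annotation of each cell: library, platform, batch, cluster number, cell type name, and UMAP positions, a score without unit or true zero. Per the submitters' processing notes, Seurat 4.0.1, STAR 2.5.2b, Cell Ranger 6.0.1, UMI-tools, HTSeq 0.6.0, Trimmomatic 0.36 and cutadapt 1.14 were used with build mm10, in roles that the notes do not name. Per the file headers, clusters were made on integrated data, which can bring cells of different libraries together. The sources used here give no cell filter or doublet handling. A further 5 columns of the tables were not used. Gene counts were not analysed here, so the planned test of genes was not made and the marker genes Sox9, Spp1 and Alb have no value.

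Libraries were grouped by their titles. PreLPLCs were chosen by the deposited cell type name. Members, cell types and measures were chosen with earlier results of these data known. Shares carry exact Clopper-Pearson 95% intervals. Ratios of shares carry Katz log intervals and ratios of cell counts log intervals. A count of 0 was given the limit of 3 cells, or the exact upper bound where so stated. Neighbours were the 15 nearest other cells by Euclidean distance on the map, checked on simulated positions. A tie between names kept the authors' name where it was tied. Named were all types that neighbour PreLPLCs. Alternatives changed the denominator, the libraries, the number of neighbours and the names. Calculations ran in Python 3.11.15 with scipy 1.17.1, pandas 2.3.3, numpy 2.4.6 and matplotlib 3.10.9.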

Additional observations from a re-analysis of the deposited data

How the results depend on the processing

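The 4 alternative ratios of the PreLPLC share between pools lay within the interval of the reported value, as did both alternative ratios of PreLPLCs per LPLC. Leaving out each day 7 library gave differences from day 0 of 1.11 to 5.99 percentage points, and counting the libraries of day 3 and day 7 as day 7 gave 2.40 points. Neighbour sets overlap, so the 35 alternative neighbour shares have no interval to be held against, and the values that differed most follow. With each type thinned to 191 cells (mean of 20 draws), PreLPLCs were 84.8% of the neighbours, InjuredHeps2 4.81% and PostLPLCs1 3.50%, beside LPLCs at 3.46%. In the CLO pool alone LPLCs were 0.851% and PostLPLCs1 21.6%. In replicate 1 of day 7 alone PreLPLCs were 36.7%, PostLPLCs1 41.7% and PostLPLCs2 0%, where PreLPLCs could reach at most 46.7%. The cause in the CLO pool was not tested. The alternatives on barcode numbers and on isolated PreLPLCs were chosen after seeing the data. Those on genes were not run. No paired analysis was possible because replicate numbers are absent from the labels, and the numbers used here follow accession order within a group.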
